A study of Mus musculus with 6 samples.

Results

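The genes described here are 10 genes of the YAP-TEAD pathway and its targets, chosen by name with the cKO and control values of these samples already known. They are Yap1, Wwtr1, Tead1 and Tead4, which encode components of the pathway, Amotl2 and Lats2, which encode regulators that are also targets, and the targets Ccn1, Ccn2, Ankrd1 and Axl. All 10 were found by symbol among the 55536 gene identifiers of the count tables, and all 10 passed the filter that left 22404 genes to be tested. RNA-seq was performed on mouse satellite cells, which are stem cells of skeletal muscle that become active after injury, in 3 control and 3 cKO samples. Control mice carried Pax7CreErt2;Hira fl/+ and cKO mice Pax7CreErt2;Hira fl/fl, both as adult males on a C57BL/6J background, and all were given a tamoxifen diet before the muscle was injured. The sample labels call the controls WT, so the genotype used here is that of the study's methods, and the controls carry the Cre allele and a single floxed Hira allele. HIRA is a chaperone that deposits the histone variant H3.3, and Cre activity in these mice is limited to cells that express Pax7. Cells were sorted 5 days after injury as CD34+ ITGA7+ CD45- TER119- SCA1- and then cultured for 48 h.

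YAP (Yap1) and TAZ (Wwtr1) are coactivators that shuttle between cytoplasm and nucleus and have no DNA-binding domain of their own. In the nucleus they bind the TEAD factors, which recognise DNA, and switch on target genes. The Hippo kinase cascade, in which the LATS kinases phosphorylate YAP and TAZ, keeps them in the cytoplasm, so pathway activity is set largely on the protein and need not show in the mRNA of the components. In satellite cells YAP is known to favour activation and proliferation over differentiation.

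The samples held 47944477 to 63323577 counts on genes, and no member had fewer than 3746 counts in a sample (Lats2 in cKO replicate 1). Levels are given as CPM, counts per 1000000 counts of the sample, and changes as edgeR's log2 fold change of cKO over control. Its standard error was computed from that change and the statistic of edgeR's test. The targeted gene, Hira, had 341 to 375 counts in control samples and 161 to 293 counts in cKO samples. These counts are not scaled for depth, and cKO replicate 1, with 161, was the smallest sample. The log2 fold change was -0.43 ± 0.12 (SE; adjusted p = 0.0237, edgeR's quasi-likelihood test), and the call was lost without control replicate 1 (adjusted p = 0.104). By RT-qPCR the paper reports a sharp decrease of Hira in satellite cells of such mice, with HIRA protein not detected. Of the myogenic markers, 8 of 8 (Pax7, Myf5, Myod1, Myog, Cdh15, Des, Itga7 and Mymk) were detected in every sample. Their sum was 7206 to 7378 CPM in control and 6391 to 6883 CPM in cKO samples. Most of it was Des and Myog, with control means of 3199 and 2112 CPM, while the stem cell marker Pax7 was at 39.3 CPM. Markers of other cell types, given below, were detected as well. Nothing in the sources used here says whether each sample came from a separate mouse, so the spread between samples may be in part technical.

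The start regions of the members are shown first because TEAD factors bind the letters GGAATG, which read CATTCC when they lie on the opposite strand. They were searched on both strands from 250 bases before to 50 bases after each RefSeq start (GRCm38.p6, the build of mm10). Of the 10 members, 7 had at least 1 entry in the promoter table, and all 7 held the letters in an entry. Tead1, Tead4 and Ccn2 were not searched. The letters were present in 14.7% of all 32851 promoters of that length, and in 14.9% of the 12245 tested genes with an entry. Each line below gives the 30 bases around a match in the direction of the gene, with the matched letters in capitals and the position of their first base counted from the start.
Yap1, -141, chr9:8004720-8004749, minus strand: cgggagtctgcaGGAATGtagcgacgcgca
Wwtr1, -136, chr3:57576029-57576058, minus strand: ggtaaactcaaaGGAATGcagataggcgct
Amotl2, -65, chr9:102717727-102717756, plus strand: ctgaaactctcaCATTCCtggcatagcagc
Lats2, 5, chr14:57746102-57746131, minus strand: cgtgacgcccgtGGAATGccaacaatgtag
Ccn1, -103, chr3:145650071-145650100, minus strand: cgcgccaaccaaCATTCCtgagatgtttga
Ankrd1, -210, chr19:36120037-36120066, minus strand: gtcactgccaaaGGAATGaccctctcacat
Ankrd1, -123, chr19:36119950-36119979, minus strand: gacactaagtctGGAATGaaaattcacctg
Axl, -233, chr7:25788949-25788978, minus strand: ggaaattctacaGGAATGtttaccagaccc
In GENCODE M21 the windows of Yap1, Wwtr1, Ccn1 and Axl lie outside any annotated exon. Those of Amotl2 and Ankrd1 lie in exons of other transcripts of the same gene, and that of Lats2 covers the start and lies in exons of Lats2 and Gm49361 over 22 of its 30 bases. Wwtr1 and Lats2 have 2 entries each, and the second entry of Lats2 holds no match.

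Ccn1 changed strongly and its whole stretch before the start is free of annotated exons. Its 250 bases are given in full (chr3:145649986-145650235, minus strand), again with the match in capitals. The whole stretches of the other members were not checked for exons.
Ccn1 before the start: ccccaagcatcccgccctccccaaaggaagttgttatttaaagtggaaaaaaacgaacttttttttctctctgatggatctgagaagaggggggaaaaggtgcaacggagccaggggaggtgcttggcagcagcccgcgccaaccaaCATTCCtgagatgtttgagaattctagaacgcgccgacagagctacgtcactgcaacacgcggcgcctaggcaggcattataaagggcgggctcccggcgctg

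Among all tested genes with an entry, those with a match passed as higher in cKO somewhat more often, and this difference was not tested. Of the 1820 tested genes with the letters in a promoter entry, 14.5% were higher in cKO and 7.14% lower at an adjusted p under 0.05, against 11.4% and 7.77% of the 10425 tested genes with an entry and no match, and the median log2 fold changes were 0.01 and 0.00. Of 10 further conserved targets with an entry, 2 held the letters (Crim1 and Ptpn14), while 10 of 26 Hippo components did. A CArG box, the element bound by SRF, was found in 0 of the 7 members with an entry and in 1.63% of all promoters, and the AP-1 letters TGANTCA in 0 of 7 and in 7.81%. These matches are descriptions of the sequence, and binding was not measured here.

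The targets were higher in cKO samples, most of all Ccn2, Ccn1, Axl and Amotl2, while Ankrd1 and Lats2 moved about as little as single components. The components moved by small amounts in both directions, Yap1 and Wwtr1 up and Tead1 and Tead4 down. The median log2 fold change was 0.38 over the 6 targets with Amotl2 and Lats2 included, from 0.12 for Ankrd1 to 1.04 for Ccn2, and -0.02 over the 4 components, from -0.17 for Tead1 to 0.11 for Yap1. The difference of the medians was 0.39, and 0.51 without Amotl2 and Lats2. Across all genes tested the median was -0.00. All 10 members had groups that did not overlap in CPM, 8 higher and 2 lower in cKO. That background was 20.3% of tested genes for higher and 11.1% for lower. With edgeR's quasi-likelihood test and a limit of 0.05 on the adjusted p, 7 members were higher and 1 lower, where 9.38% of all tested genes were higher and 6.46% lower. Scaling by total counts alone moved the higher share of all called genes from 59.2% to 70.0%. As the members were chosen from these same values, the counts describe them and are no test. Because the RNA was pooled over the cells of a culture, fewer cells of a type and less RNA per cell cannot be told apart in any of these values.

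**Figure D1:**
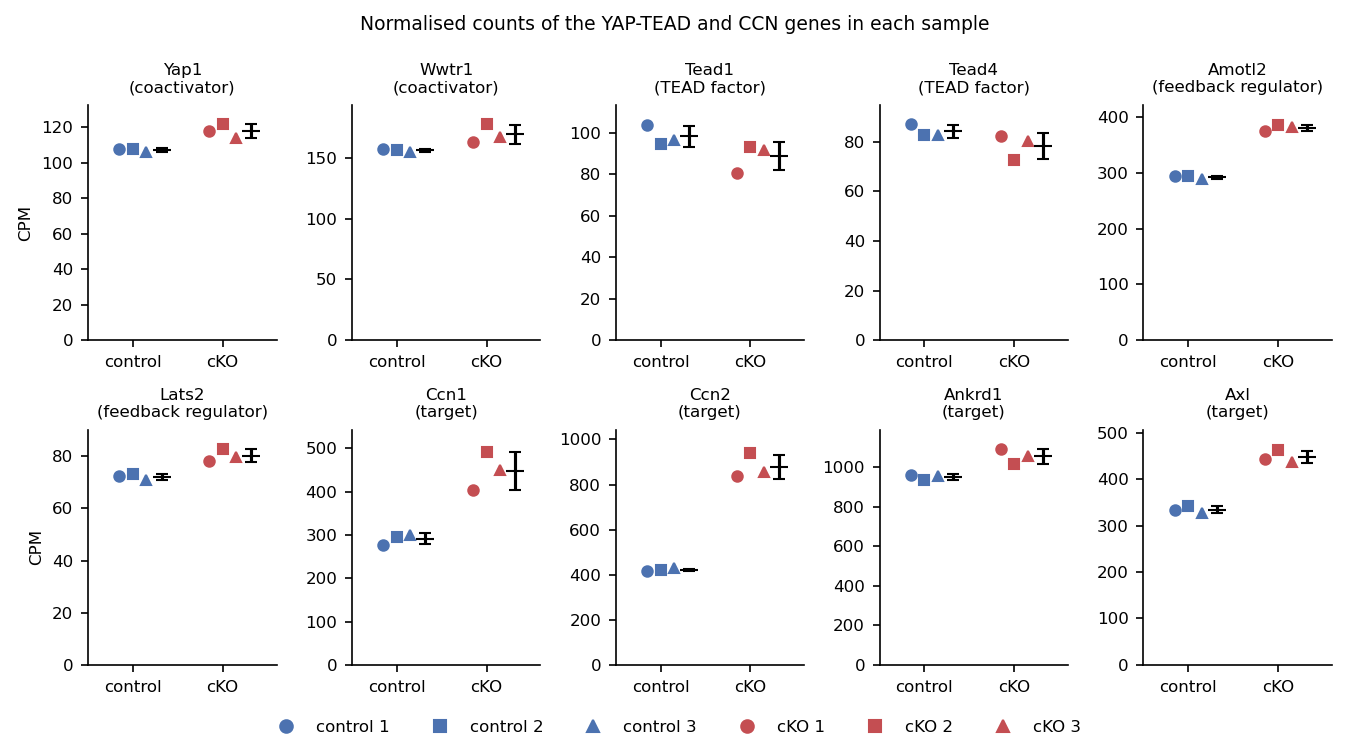
CPM of each of the 10 genes (y axis, from 0) in the 3 control and 3 cKO samples, with 1 symbol per replicate and the mean ± SD of 3 samples beside them. The cKO samples of Ccn2 lie between 839 and 940 CPM, above the control samples at 417 to 428 CPM, while the groups of Yap1, Wwtr1, Tead1 and Tead4 lie close together.

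Among the coactivators, Yap1 (ENSMUSG00000053110, chr9:7931999-8004596) had 108, 108 and 106 CPM in control replicates 1, 2 and 3 and 118, 122 and 114 CPM in the cKO replicates. Every cKO sample was above every control sample, but the gap was small, and the log2 fold change was 0.11 ± 0.03 (SE). Wwtr1, which encodes TAZ (ENSMUSG00000027803, chr3:57455649-57575910), had 157, 156 and 155 CPM in controls and 163, 178 and 167 CPM in cKO samples. The cKO samples were again the higher ones, with replicate 2 farthest from the controls, and the log2 fold change was 0.09 ± 0.03. Per kilobase of exon, the scale on which different genes can be set side by side, TAZ was the more abundant coactivator. Wwtr1 made up 73.8% ± 0.191 of the summed level of both genes in control and 73.5% ± 0.588 in cKO (SD, n = 3 per group). The sum was 44.2 ± 0.271 CPM per kb in control and 48.2 ± 1.94 CPM per kb in cKO.

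The TEAD factors, through which YAP and TAZ reach DNA, were at lower levels in cKO for both members. Tead1 (ENSMUSG00000055320, chr7:112679318-112906807) had 104, 94.6 and 96.6 CPM in controls and 80.9, 93.3 and 92.0 CPM in cKO samples. The groups were separated by a narrow margin, since cKO replicates 2 and 3 lay just under the controls and only replicate 1 was clearly lower, and the log2 fold change was -0.17 ± 0.05. Without cKO replicate 1 it was -0.11. Tead4 (ENSMUSG00000030353, chr6:128224288-128300823), the family member best known from muscle differentiation, had 87.0, 82.7 and 82.6 CPM in controls and 82.4, 72.5 and 80.1 CPM in cKO samples. Here replicate 2 was the low cKO sample and replicate 1 almost reached the controls. The log2 fold change was -0.13 ± 0.05, and -0.07 without cKO replicate 2.

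Of the other TEAD genes, Tead2 rose from 77.9 ± 2.16 to 86.3 ± 1.37 CPM (SD, n = 3 per group), with a log2 fold change of 0.12 ± 0.03 (SE; adjusted p = 0.0219, edgeR). Without control replicate 1, control replicate 2 or cKO replicate 3 it no longer passed the threshold, with an adjusted p of up to 0.131. Tead3 was the least abundant and its log2 fold change of 0.14 ± 0.05 did not pass (adjusted p = 0.0753, edgeR). Summed per kilobase, the 4 TEAD genes were at 49.8 ± 0.685 CPM per kb in control and 49.6 ± 1.27 in cKO, within the spread between replicates. Within that sum, Tead4 went from 46.9% ± 0.763 to 43.9% ± 1.80 and Tead1 from 14.6% ± 0.524 to 13.2% ± 1.28, while Tead2 went from 32.7% ± 1.33 to 36.3% ± 0.434 (SD, n = 3 per group). The shift in make-up came to a few percentage points and was not tested.

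**Figure D2:**
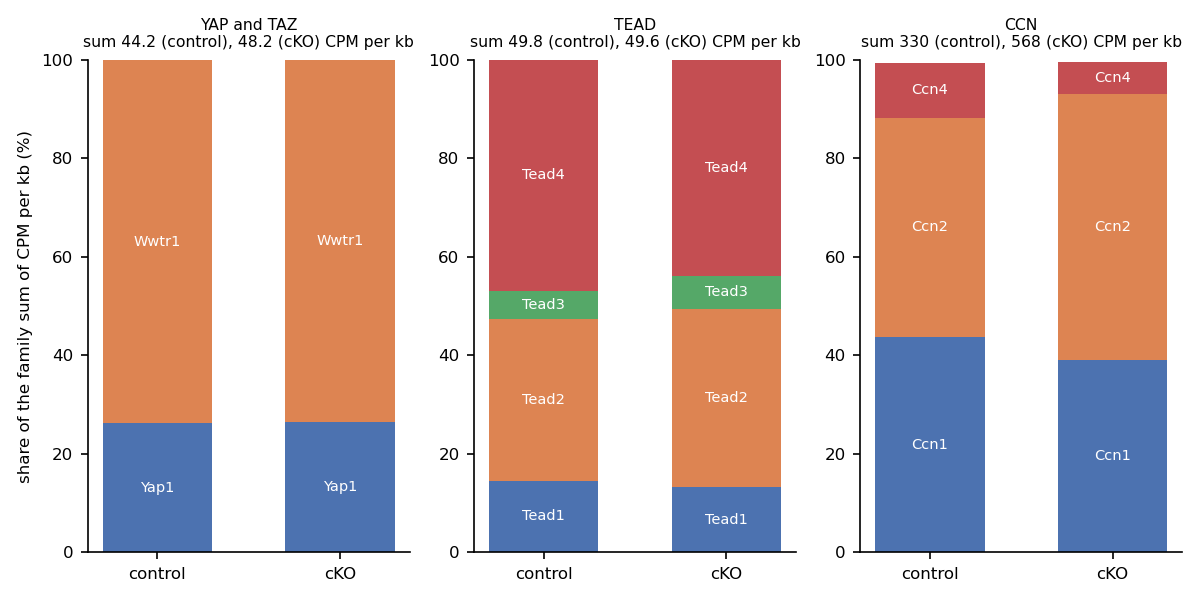
Share of each gene in the summed CPM per kb of its family (y axis, percent, means of 3 samples) in control and cKO, for YAP and TAZ, the TEAD factors and the CCN proteins, with the sum of the family above. Genes under 1% of a family are not drawn. Wwtr1 and Tead4 led their families in both groups, and Ccn2 went from 44.6% to 54.0% of the CCN sum.

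Amotl2 and Lats2 inhibit YAP and TAZ and are at the same time switched on by them, which makes them feedback regulators. Amotl2 (ENSMUSG00000032531, chr9:102716672-102733418), an angiomotin-family scaffold, had 294, 294 and 289 CPM in controls and 376, 386 and 382 CPM in cKO samples. The samples of each group lay within a few percent of each other and far from the other group, and the log2 fold change of 0.36 ± 0.03 stayed between 0.35 and 0.38 under the 13 other settings tried. Lats2 (ENSMUSG00000021959, chr14:57689662-57758388), a LATS kinase, had 72.3, 73.1 and 70.8 CPM in controls and 78.1, 82.9 and 79.6 CPM in cKO samples. All cKO samples were above the controls, by a log2 fold change of 0.13 ± 0.03. Of its exonic bases, 42.4% overlap Gm49361 on the same strand, and 40.5% of the 75-base windows of its transcripts also occur there, so reads of Gm49361 may be among its counts, or its own may be missing.

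Of the paralogues of both regulators, Amotl1 rose, Amot fell and Lats1 did not pass the threshold. Lats1 had 87.8 ± 2.73 CPM in controls and 89.0 ± 4.04 CPM in cKO samples (SD, n = 3 per group), with a log2 fold change of -0.00 ± 0.04 (adjusted p = 0.961, edgeR). Within the angiomotins, Amotl1 rose from 176 ± 2.17 to 199 ± 5.00 CPM, with a log2 fold change of 0.15 ± 0.03 (adjusted p = 0.00314). Amot fell from 86.9 ± 2.31 to 79.2 ± 2.68 CPM, with a log2 fold change of -0.16 ± 0.04 (adjusted p = 0.00624). Both angiomotin calls held with each sample left out in turn. Per kilobase, the 3 angiomotins summed to 74.3 ± 0.794 CPM per kb in control and 89.8 ± 0.129 in cKO, and Amotl2 alone held 46.5 and 60.6 CPM per kb of these sums.

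CCN proteins are secreted matricellular proteins that signal through integrins and bind growth factors, and Ccn1 (Cyr61) and Ccn2 (Ctgf) are the targets most often used to read out YAP-TEAD activity. Ccn2 (ENSMUSG00000019997, chr10:24595442-24598683) had 417, 419 and 428 CPM in controls and 839, 940 and 856 CPM in cKO samples. The lowest cKO sample was far above the highest control sample. Its mean rose 2.09-fold, from 421 ± 6.07 to 878 ± 54.3 CPM (SD, n = 3 per group), and its log2 fold change of 1.04 ± 0.04 was exceeded by 1.61% of tested genes. Of its exonic bases, 23.2% overlap Gm15270 on the opposite strand. The library kit keeps the strand, but the strand setting of the counting is not given in the sources used here, so reads of that gene cannot be set apart.

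Ccn1 (ENSMUSG00000028195, chr3:145646976-145649981), whose stretch before the start is printed above, had 278, 296 and 301 CPM in controls and 404, 492 and 449 CPM in cKO samples. The groups were well separated, with more spread among cKO samples than among controls. Means were 291 ± 11.9 and 448 ± 43.9 CPM (SD, n = 3 per group), a 1.54-fold difference and a log2 fold change of 0.60 ± 0.05. Without cKO replicate 2, the highest sample of both genes, the log2 fold changes were 0.53 for Ccn1 and 0.99 for Ccn2. No transcript window of Ccn1 occurs in another gene.

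No other CCN gene passed the threshold. Ccn4 was at 202 ± 3.60 CPM in controls and 206 ± 6.56 CPM in cKO samples (SD, n = 3 per group), with a log2 fold change of 0.01 ± 0.03 (adjusted p = 0.943, edgeR) that turned negative without control replicate 1 or cKO replicate 2. Ccn5 was at 0.12 ± 0.10 on the log2 scale (adjusted p = 0.483). Ccn3 was close to the detection limit, at 0.197 ± 0.0599 CPM in controls and 0.345 ± 0.115 CPM in cKO samples, with overlapping groups (log2 fold change 0.76 ± 0.35, adjusted p = 0.172). Ccn6 had at most 0.167 CPM in a sample and was not tested. A p above the threshold does not show that these genes were equal in both groups. On the scale per kilobase the CCN sum went from 330 ± 8.10 to 568 ± 40.4 CPM per kb. Ccn1 and Ccn2 held 43.7% and 44.6% of it in control and 39.0% and 54.0% in cKO, and Ccn4 went from 11% to 6.53%.

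Ankrd1, a muscle ankyrin repeat protein of the sarcomere and nucleus, was the most abundant member and changed little. It (ENSMUSG00000024803, chr19:36111961-36120099) had 962, 934 and 954 CPM in controls and 1092, 1013 and 1055 CPM in cKO samples. The cKO samples were all above the controls, but by a log2 fold change of 0.12 ± 0.03, and 24.6% of tested genes had a larger one. It was also the only target whose highest sample was not cKO replicate 2. Its start region held 2 matches to the TEAD letters, more than any other member searched. Of its paralogues, Ankrd2 was at -0.09 ± 0.06 on the log2 scale (adjusted p = 0.375, edgeR) and Ankrd23 at 0.15 ± 0.16 (adjusted p = 0.627). Ankrd23 shares 78.2% of its exonic bases with Gm42417 on the same strand.

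Axl is a receptor tyrosine kinase of the TAM family, named for Tyro3, Axl and Mertk, whose bridging ligands Gas6 and Pros1 mark dying cells for uptake. Axl (ENSMUSG00000002602, chr7:25757273-25788705) had 334, 341 and 326 CPM in controls and 444, 462 and 436 CPM in cKO samples. Both groups were tight and separate, and the log2 fold change of 0.40 ± 0.03 stayed between 0.38 and 0.42 under the other settings. Axl was by far the most abundant TAM receptor, with 66.3 ± 1.43 CPM per kb in control and 88.9 ± 2.58 in cKO (SD, n = 3 per group), where Tyro3 and Mertk had at most 1.40 CPM per kb as group means. Mertk rose from 3.82 ± 0.468 to 6.08 ± 0.830 CPM, with a log2 fold change of 0.65 ± 0.11 (adjusted p = 0.000593, edgeR), and Tyro3 was at -0.00 ± 0.07 on the log2 scale (adjusted p = 0.988). The ligands were higher in cKO too, Gas6 by a log2 fold change of 0.24 ± 0.03 (adjusted p = 9.4e-05) and Pros1 by 0.22 ± 0.05 (adjusted p = 0.00812, and 0.0511 without control replicate 3). Macrophages express both Mertk and Axl, and the macrophage markers given below moved in the same direction. Their part in these values was not tested.

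**Figure D3:**
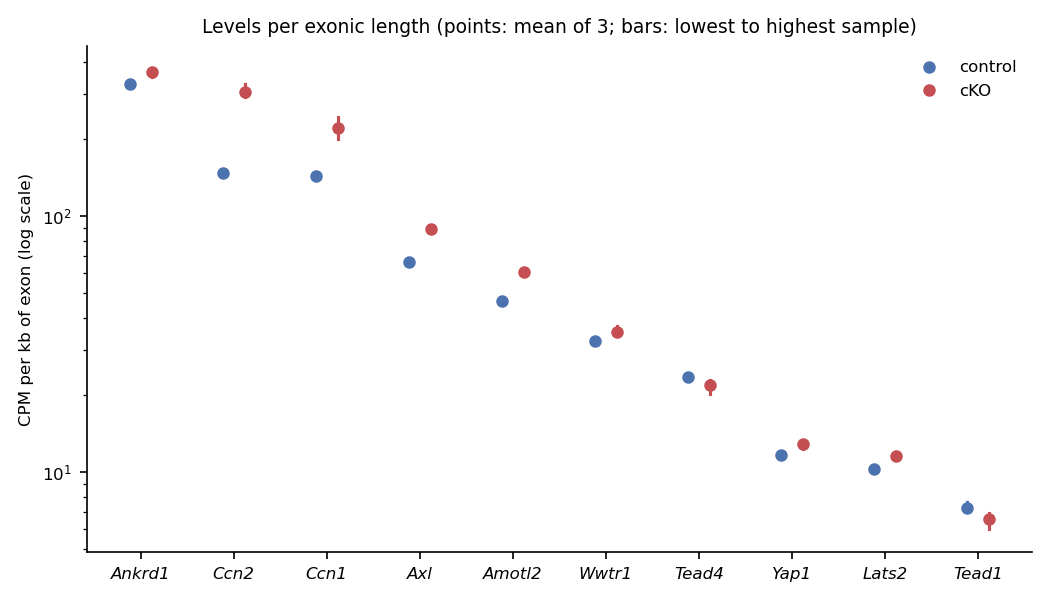
CPM per kb of exon (y axis, log scale) of the 10 genes, ordered by their level in control. Points are means of 3 samples and bars run from the lowest to the highest sample. Ankrd1 led at 329 CPM per kb in control, the targets except Lats2 lay above all components, and Ccn2 and Ccn1 parted only in cKO.

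Per kilobase of exon, the order of the levels in control was Ankrd1 with 329 ± 5.02 CPM per kb, Ccn2 with 147 ± 2.12, Ccn1 with 144 ± 5.91, Axl with 66.3 ± 1.43 and Amotl2 with 46.5 ± 0.462 (SD, n = 3 per group). Then came Wwtr1 with 32.6 ± 0.170 CPM per kb, Tead4 with 23.4 ± 0.691, Yap1 with 11.6 ± 0.136, Lats2 with 10.3 ± 0.165 and Tead1 with 7.25 ± 0.362. Ccn2 and Ccn1 were the only neighbours in this order whose samples overlapped, at 146 to 150 and 138 to 149 CPM per kb. In cKO the order was the same and these neighbours no longer overlapped, with 293 to 329 CPM per kb for Ccn2 and 200 to 244 for Ccn1. The exonic length is that of all annotated transcripts together, which understates genes with long rarely used exons.

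Beyond the members, the rest of the pathway was examined with a list of 30 further Hippo components, of which 29 were tested. In edgeR's quasi-likelihood test 2 were higher in cKO, Amotl1 and Tead2, 2 were lower, Amot and Dchs1, and 25 did not pass the threshold. These shares of 6.90% in each direction lie close to those of all tested genes, and the median log2 fold change was 0.05. Dchs1, a large cadherin upstream of the pathway, fell from 111 ± 2.22 to 99.3 ± 4.35 CPM (SD, n = 3 per group), with a log2 fold change of -0.18 ± 0.04 (adjusted p = 0.00215). Of the 8 genes of the core kinase cassette (Stk3, Stk4, Sav1, Mob1a, Mob1b, Lats1, Stk38 and Stk38l), 0 passed, with log2 fold changes from -0.20 to 0.12. Vgll1, a TEAD cofactor, had 1 count over all 6 samples and was not tested. The number of components called higher depended on the settings, from 1 to 7, and Fat1, Stk3 and Wwc2 passed in several of them.

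Many further targets were higher in cKO. The list used is a set of 22 targets known from many cell types, 6 of which are members, and 9 of the other 16 were higher in cKO, 0 lower and 7 not past the threshold (edgeR's quasi-likelihood test). The higher ones made up 56.2% of the 16, beside 9.38% of all tested genes, and the median log2 fold change was 0.15 beside -0.00. F3, which encodes tissue factor, had 15.9, 14.4 and 15.1 CPM in controls and 32.6, 36.9 and 34.1 CPM in cKO samples. Its groups were far apart, and its log2 fold change of 1.17 ± 0.05 (adjusted p = 1.4e-09) was above that of Ccn2. Secreted Ccdc80 rose by 0.75 ± 0.04 (adjusted p = 3.2e-09) and Crim1, which binds growth factors of the BMP family, by 0.73 ± 0.04 (adjusted p = 5.2e-09) on the log2 scale. The kinase gene Nuak2 rose by 0.69 ± 0.07 (adjusted p = 2.8e-06), Fjx1 by 0.55 ± 0.13 (adjusted p = 0.00854) and Dock5 by 0.45 ± 0.06 (adjusted p = 3.5e-05). Smaller rises were found for Asap1 (0.21 ± 0.05, adjusted p = 0.00486) and Myof (0.12 ± 0.03, adjusted p = 0.00968, and 0.0610 without control replicate 1). Rbms3 passed narrowly, with a log2 fold change of 0.10 ± 0.03 and an adjusted p of 0.0331, and lost the call in 7 of 13 settings. The 7 that did not pass were Igfbp3, Foxf2, Gadd45a, Nt5e, Ptpn14, Arhgef17 and Tgfb2, with log2 fold changes from -0.15 to 0.18. Crim1 holds the TEAD letters in its start region and rose, and Ptpn14 holds them and did not pass (-0.15 ± 0.07, adjusted p = 0.160). The value of Ptpn14 was -0.06 without cKO replicate 1 and passed as lower at -0.23 without cKO replicate 2 (adjusted p = 0.0169), and it also passed with no filter (adjusted p = 0.00087).

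**Figure D4:**
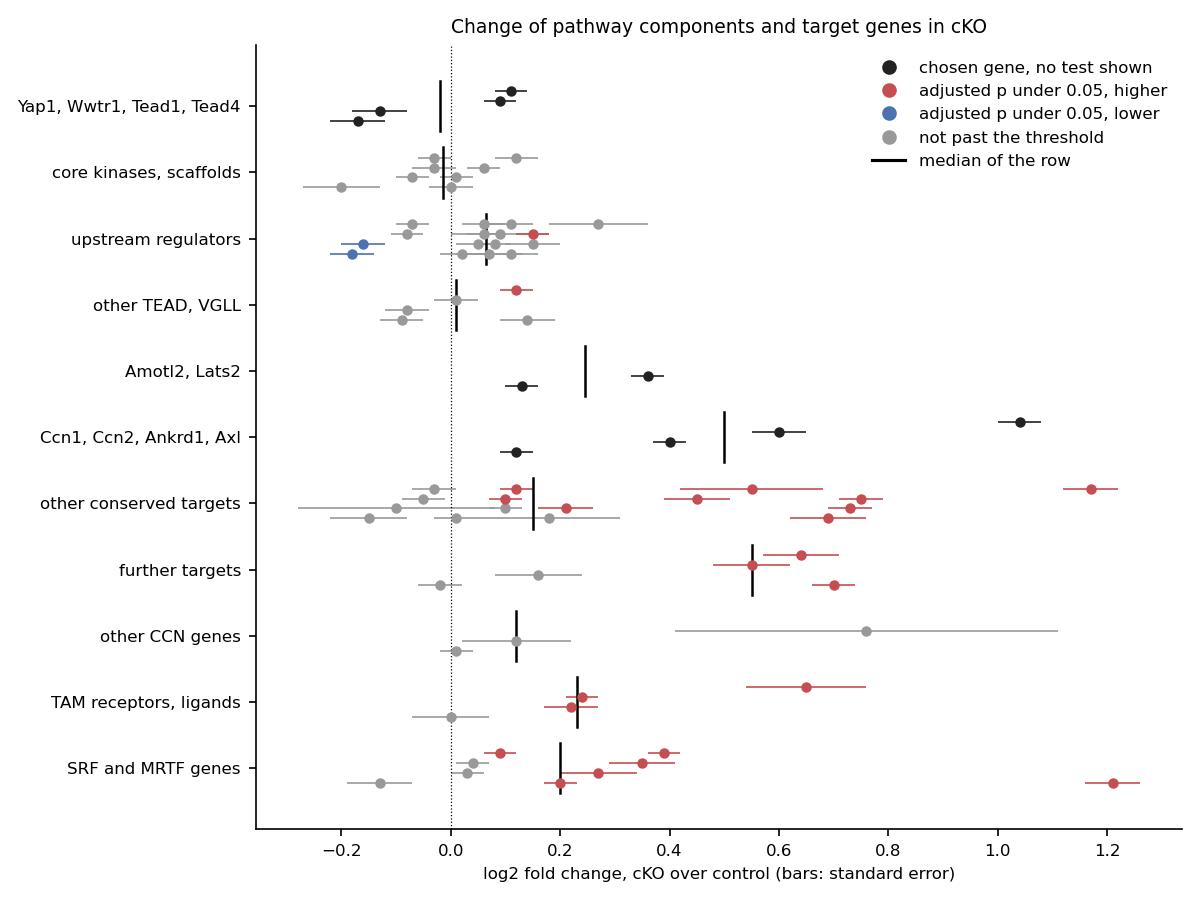
Log2 fold change of cKO over control (x axis; bars, standard error) for pathway components and target genes by role, with the median of each row as a vertical line. The components lie around 0, while the rows of Ccn1, Ccn2, Ankrd1 and Axl, of other conserved targets and of SRF and MRTF genes reach above 1.

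A smaller group of targets outside that set comprised Thbs1, Tgm2, Edn1, Birc5 and Areg. Thbs1, a matrix glycoprotein, had 2386, 2386 and 2392 CPM in controls and 3805, 4251 and 3800 CPM in cKO samples, with a log2 fold change of 0.70 ± 0.04 (adjusted p = 6.4e-09, edgeR). The samples of each group lay together and cKO replicate 2 was highest, as in Ccn1 and Ccn2. The transglutaminase gene Tgm2 (0.64 ± 0.07, adjusted p = 6.2e-06) and the endothelin gene Edn1 (0.55 ± 0.07, adjusted p = 3.5e-05) rose from low levels of 12.8 and 5.83 CPM. Of the exonic bases of Tgm2, 21.8% overlap other genes on the opposite strand, with the limit given for Ccn2. Birc5, an inhibitor of apoptosis that is high in dividing cells, was at -0.02 ± 0.04 on the log2 scale (adjusted p = 0.815), and Areg, an EGF receptor ligand, at 0.16 ± 0.08 (adjusted p = 0.223). Thbs1 and Ccn2 are also well-known targets of TGF-beta signalling, so the list does not read the YAP-TEAD pathway alone.

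SRF and its MRTF cofactors respond to actin and share several targets with YAP and TEAD, including Ccn1, Ccn2 and Ankrd1. Of 9 genes of this system, 6 were higher in cKO, 0 lower and 3 not past the threshold. The higher ones made up 66.7%, beside 9.38% of all tested genes. Cnn1, calponin of smooth muscle, had 15.3, 14.6 and 15.8 CPM in controls and 34.5, 38.5 and 34.6 CPM in cKO samples, with a log2 fold change of 1.21 ± 0.05 (adjusted p = 6.4e-10, edgeR). Its groups did not come near each other. Myl9 rose by 0.39 ± 0.03 (adjusted p = 3.1e-07), the cofactor gene Mrtfa by 0.35 ± 0.06 (adjusted p = 0.000452) and Tpm1 by 0.20 ± 0.03 (adjusted p = 0.000227) on the log2 scale. Tagln (0.27 ± 0.07, adjusted p = 0.0140) and Acta2 (0.09 ± 0.03, adjusted p = 0.0358) passed as well, but lost the call in 2 and 6 of 13 settings. Of the exonic bases of Tagln, 67.9% overlap other genes on the opposite strand, so the limit given for Ccn2 holds here too. Srf itself was at 0.03 ± 0.03 on the log2 scale (adjusted p = 0.669), Vcl at 0.04 ± 0.03 (adjusted p = 0.408) and Mrtfb at -0.13 ± 0.06 (adjusted p = 0.158). Mrtfb passed as lower with no filter (adjusted p = 0.0394) and without cKO replicate 2 (-0.21, adjusted p = 0.0113), and was at -0.07 without cKO replicate 1. The mRNA of Srf stayed near the control level while Mrtfa and several targets were higher, and a link between them was not tested. Acta2, Tagln and Cnn1 are also on the list of smooth muscle and pericyte markers.

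Markers of other cell types moved with the targets. As the background for the counts that follow, 9.38% of all tested genes passed as higher and 6.46% as lower. All 14 macrophage markers passed as higher in cKO, at a median of 1.06 on the log2 scale and a summed level of 151 to 156 CPM in controls and 317 to 371 CPM in cKO samples; Ptprc, which encodes the CD45 used for exclusion in the sort, was among them. Fibroblast markers summed to 776 to 811 CPM in controls and 1123 to 1241 CPM in cKO samples, with 6 of 9 tested markers higher and Lum not tested. Most of the control sum was Col3a1, Postn and Col1a1, with means of 393, 250 and 120 CPM. Dcn, Dpt and Pi16 were low in controls, with means of 0.953, 0.481 and 0.26 CPM. Endothelial markers summed to 18.1 to 20.6 and 28.4 to 34.1 CPM, with 5 of 10 higher. Smooth muscle and pericyte markers summed to 3278 to 3336 and 3578 to 3721 CPM. Of them, 7 of 9 tested markers were higher, 2 were lower (Notch3 and Abcc9), and Kcnj8 was at or under 3 counts in every sample. Most of the control sum of this list was Acta2, with a mean of 2929 CPM, followed by Cspg4 with 138 CPM. Myh11, Rgs5 and Cnn1 had control means of 28.1, 17.3 and 15.2 CPM, so the sum mainly follows Acta2. Schwann markers summed to 6.53 to 7.19 and 7.88 to 10.4 CPM, with 0 of 3 tested markers past the threshold. In contrast, 7 of 8 myogenic markers were lower, with a median log2 fold change of -0.17. No marker of any list was at 0 in all samples. The sort kept cells with ITGA7 and CD34 and left out those with SCA1, a surface protein of many fibroblasts and endothelial cells in muscle. Its gene Ly6a, on the fibroblast list, was at 3.04 ± 0.166 CPM in controls and 3.66 ± 0.241 CPM in cKO samples (SD, n = 3 per group), with a log2 fold change of 0.24 ± 0.10 (adjusted p = 0.115, edgeR). Fibroblasts, endothelial cells and pericytes express Ccn1, Ccn2, Axl and Thbs1. The part of such cells in the rise of the targets was not tested. The paper reports Pdgfra and Cdh5, which are on these lists, as higher in cKO satellite cells and in a Hira-KO line of C2C12 myoblasts. It also reports staining for the protein of Cdh5 in cKO satellite cells, and describes such genes as ectopically expressed in myogenic cells. Whether marker RNA came from myogenic or from other cells was not tested here.

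**Figure D5:**
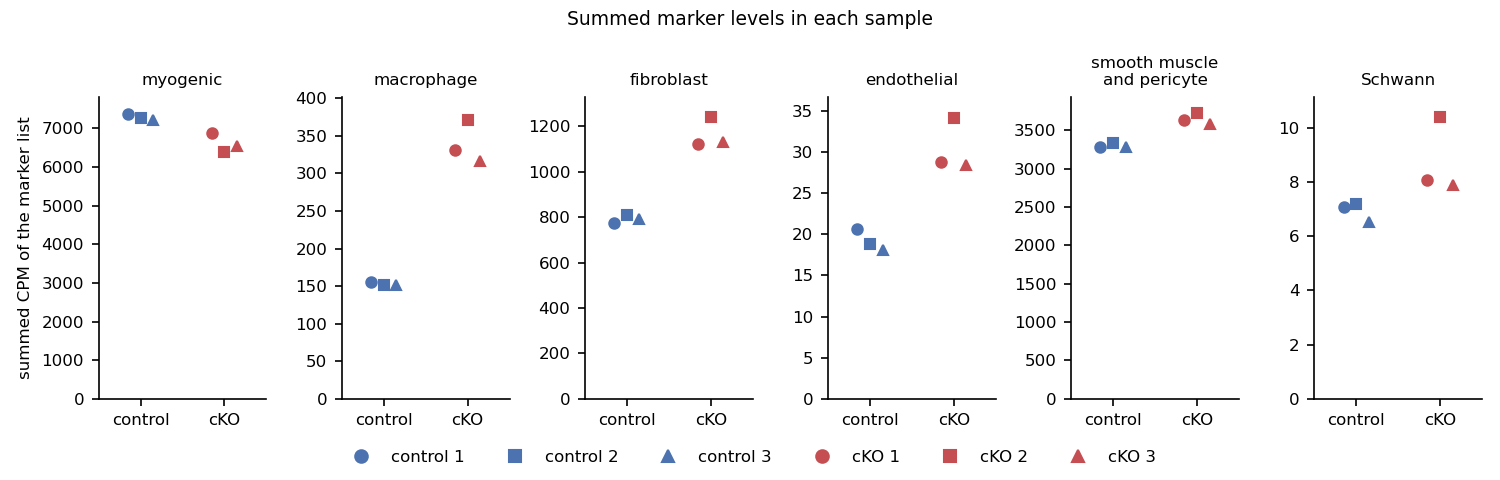
Summed CPM of each list of cell type markers (y axes, from 0) in the 3 control and 3 cKO samples, with 1 symbol per replicate. The macrophage sum went from 151 to 156 CPM in controls to 317 to 371 CPM in cKO samples, the myogenic sum was lower in cKO, and cKO replicate 2 was the highest sample of the macrophage, fibroblast, endothelial, smooth muscle and Schwann lists.

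cKO replicate 2 was the highest of the 6 samples for 7 of the 10 members and for 5 of the 6 targets, and it was the highest for the macrophage, fibroblast, endothelial, smooth muscle and pericyte and Schwann sums. Most of the smooth muscle and pericyte sum was Acta2, with 3228 of 3721 CPM in that sample. The same sample had the lowest myogenic sum, 6391 CPM. Without it the log2 fold changes were 0.35 for Amotl2, 0.11 for Lats2, 0.15 for Ankrd1 and 0.38 for Axl, beside the values of Ccn1 and Ccn2 given above. The difference between the medians of targets and components was then 0.37.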

How the data were processed

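The authors aligned single-end reads of 75 bp to mm10 with Bowtie2 2.3.4.2 and counted them per gene with featureCounts 1.6.3, as the submitters' processing notes name them. The deposited values used here are raw counts per gene. An aligner that does not split reads drops reads over exon junctions, and pseudogenes held 12.0% to 12.3% of counts. The authors' normalized table and their comparison table (fold changes and p-values from DESeq2) were not used. Counts were fitted with edgeR 4.0.16 (R 4.3.3; filterByExpr, TMM, quasi-likelihood test, genotype only), with Benjamini-Hochberg adjustment over 22404 genes and a threshold of 0.05. Replicates varied with a common coefficient of 3.92%. CPM are counts per 1000000 counts of a sample, and lengths are unions of GENCODE M21 exons. Members and lists were chosen with earlier results of these data known, so members get no p-value. The genes named are the members, their paralogues and ligands, and list genes past the threshold, up to 8 a list and direction by size. Rbms3 was named beyond that limit. Genes named as not passing were added after their values were seen. DESeq2 1.42.0, a likelihood-ratio test, scalings, filters, a replicate block and leaving out samples were tried. Replicates differed by more than the sampling noise of counts, and none was counted as a repeat of another. A listed target is not reported here.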

Additional observations from a re-analysis of the deposited data

How the results depend on the processing

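No member changed direction under any of the 13 other settings, and Amotl2, Ccn1, Ccn2 and Axl passed the threshold in all of them. Between 4 members (without control replicate 3, where 11.1% of all tested genes passed) and 10 members (without cKO replicate 1, where 17% did) passed, against 8 and 15.8%. The difference between the medians of targets and components was 0.51 without Amotl2 and Lats2, 0.39 with both counted as components, and 0.37 to 0.41 with each sample left out. Hippo components higher in cKO numbered 4 with the likelihood-ratio test, 7 with total counts only and 5 with no filter, against 2, and 1 to 6 with each sample left out (1 without control replicate 1 or 2, 6 without cKO replicate 1). Components lower in cKO numbered 2 to 3. Conserved targets higher in cKO numbered 7 to 10 with each sample left out, and lower ones 1 with no filter and 0 to 1 with each sample left out; the 1 was Ptpn14, also without cKO replicate 2. The cause of these moves was not tested. Control and cKO samples with the same number did not deviate together (r = -0.0129, -0.00451 and -0.0145), so no pairing by number was seen. Values near 0 cannot exclude one, and the paper used a paired test for its RT-qPCR of such cells. With the replicate block 8 members passed the threshold, Tead1 losing the call and Tead4 gaining it, and the fit gave a difference of medians of 0.40, 2 components higher and 2 lower, and 8 conserved targets higher and 0 lower, with 1901 genes higher and 1251 lower in all.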
